A study of Mus musculus with 62 samples.

Results

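Metalloproteases and the tissue inhibitors that hold them in check were followed here in the diaphragm, the main muscle of breathing, of mice that bear a melanoma. The 10 genes were taken by name from the table of 47643 genes: the inhibitors Timp1, Timp2, Timp3 and Timp4, the matrix metalloproteases Mmp2, Mmp3, Mmp9 and Mmp14, and the secreted proteases Adamts1 and Adamts4. All 10 were in the table. RNA-seq was done on diaphragms from 62 female mice, 1 library per mouse, at 2, 4, 6 and 8 weeks post implantation. The labels give an age of 2 months at every week, and the study's methods give 2 months as the age of the mice when purchased. Age at collection and week therefore cannot be told apart. One group carried cells of a patient-derived melanoma xenograft that causes cachexia (cachectic mice), one carried cells of another melanoma xenograft that does not (non-cachectic mice), and control mice had a mock injection. Each condition held 5 mice, apart from the 7 cachectic mice at 8 weeks. Each xenograft came from 1 tumor, so an effect of cachexia and an effect of that particular tumor cannot be told apart. The sample labels name C57BL6/J mice, whereas the series design and the study's methods name NCI Ath/nude mice, which lack mature T cells but keep neutrophils and macrophages.

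Matrix metalloproteases are zinc enzymes that are made as inactive precursors and cut collagens, laminins, proteoglycans and many cell-surface and signaling proteins. TIMP proteins bind the active site of these enzymes, and Timp3, which stays bound to the matrix, also inhibits ADAM and ADAMTS proteases. In skeletal muscle most of these genes are known to be used by connective tissue, vascular and immune cells, and less by the myofibers, and they are known for matrix turnover after injury and in wasting. RNA levels do not show the activity of an enzyme, which is set by activation and inhibition of the protein.

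The values are TPM, a length-normalized unit with the same total in every library. Levels can be compared between genes, but between mice they also move with the share that other genes take of that total. A gene was kept if it reached 1 TPM in at least 5 mice (13578 genes). All 10 genes passed, 9 of them in 23 to 62 mice. Adamts4 reached 1 TPM in only 6 mice, all of them cachectic mice at 6 or 8 weeks, so Adamts4 passed the filter through the group in which it was high. Differences between groups were tested on log2(TPM + 1) with limma, in 1 fit over all 62 mice, and a gene was called at a Benjamini-Hochberg adjusted p under 0.05 over all genes kept. Fold changes on this scale come out smaller than the ratio of TPM where TPM is low. In bulk muscle, fewer cells of a type and less RNA per cell cannot be told apart.

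The libraries were not all alike. At 2 weeks 3 of them (replicates 3 and 4 of the cachectic group and replicate 5 of the non-cachectic group) and at 8 weeks 1 (replicate 3 of the cachectic group) listed 15069 to 16389 genes above 0, against 17909 to 19057 in the other 58, and the 37 mitochondrial genes took 54.4% to 61.5% of their TPM, against 32.5% to 50.1%. Another 4 (control replicates 2, 4 and 5 at 2 weeks and cachectic replicate 5 at 6 weeks) stood out for genes of liver, with a mean log2(TPM + 1) over 10 liver genes of 8.11 to 10.3, against at most 7.59 elsewhere. The mitochondrial share also differed between groups. At 6 weeks it was 34.3% to 44.9% in cachectic and 44.9% to 47.9% in control mice. At 8 weeks it was 32.5% to 41.6% in cachectic mice other than replicate 3 and 40.9% to 49.3% in control mice. TPM over nuclear genes only was among the alternatives. The skeletal muscle markers (Acta1, Ckm, Mb and 5 others) summed to 54548 to 103841 TPM in every mouse, as the tissue label says. Of 6 T-cell markers, 5 stayed below 1 TPM in every mouse.

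The genes lie apart in the genome (GRCm38): Timp1 at chrX:20870166-20874735, Timp2 at chr11:118301069-118355740, Timp3 at chr10:86300372-86349506, Timp4 at chr6:115241892-115252205, Mmp2 at chr8:92827291-92853420, Mmp3 at chr9:7445822-7455975, Mmp9 at chr2:164940780-164955850, Mmp14 at chr14:54431612-54445364, Adamts1 at chr16:85793827-85803113 and Adamts4 at chr1:171250421-171260637. All are annotated as protein-coding genes, and the values cover whole genes, not single exons. Of the TIMP genes, 3 sit inside a synapsin gene on the other strand: Timp1 in Syn1, Timp3 in Syn3 and Timp4 in Syn2. Annotated exons overlap for Timp3 and Syn3 and for Timp4 and Syn2. The sources differ on strand: the sample labels name a stranded mRNA kit and the study's methods a TruSeq RNA kit that does not mark strand, and neither says whether reads were counted by strand. Where they were not, the reads of such partners cannot be told apart, so the values of genes with an overlapping partner, Timp4 among them, are uncertain to that extent. Syn1 and Syn3 did not exceed 0.342 and 0.141 TPM in any mouse.

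Promoters are shown for the called genes Mmp3, Timp1 and Timp4, as the 250 bases before each start in the RefSeq table (GRCm38.p6), which held 7 of the 10 genes; Mmp2, Mmp9 and Adamts4 had no entry. Capitals mark matches to motifs of transcription factors that act downstream of cytokines and glucocorticoids: AP-1 (TGANTCA), STAT (TTCNNNGAA), C/EBP (TTGCNNAA) and the glucocorticoid receptor, each searched on both strands.
Mmp3, chr9:7445572-7445821, plus strand: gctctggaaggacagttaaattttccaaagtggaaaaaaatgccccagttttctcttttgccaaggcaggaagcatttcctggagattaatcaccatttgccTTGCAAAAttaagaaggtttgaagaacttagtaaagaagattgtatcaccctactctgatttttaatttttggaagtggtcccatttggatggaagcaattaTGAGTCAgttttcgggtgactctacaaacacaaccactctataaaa
Timp1, chrX:20869916-20870165, plus strand: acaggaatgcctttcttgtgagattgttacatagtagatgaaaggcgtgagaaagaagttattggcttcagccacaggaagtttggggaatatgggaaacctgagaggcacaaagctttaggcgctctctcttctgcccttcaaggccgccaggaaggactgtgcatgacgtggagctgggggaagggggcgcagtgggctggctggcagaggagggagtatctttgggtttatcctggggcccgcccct
Timp4, chr6:115252206-115252455, minus strand: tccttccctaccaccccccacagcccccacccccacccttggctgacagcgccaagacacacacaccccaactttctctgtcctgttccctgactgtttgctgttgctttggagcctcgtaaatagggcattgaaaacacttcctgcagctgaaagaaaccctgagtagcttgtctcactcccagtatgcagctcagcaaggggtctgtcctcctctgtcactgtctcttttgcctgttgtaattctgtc
Mmp3 held an AP-1 match (TGAGTCA) 46 to 40 bases before the start and a C/EBP match (TTGCAAAA) 148 to 141 bases before it. No match to these letters was found in the windows of the other 6 genes, Timp1 and Timp4 included. Among 32851 promoter windows of the same length, 6.75% held the AP-1 letters, 9.56% the C/EBP letters, 7.02% the STAT letters and 0.387% the glucocorticoid receptor motif. A match describes the sequence and does not show that a factor binds there.

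The 10 genes spanned a wide range of TPM. Timp2 and Timp3 were the highest, with medians over all mice of 80.7 and 77.2 TPM, followed by Mmp2, the gelatinase that cuts denatured and basement membrane collagen, at 56.8 TPM. Adamts1 (median 22.8 TPM), Timp4 (13.1 TPM) and Mmp14 (9.90 TPM), the membrane-bound protease that activates Mmp2, were intermediate. Timp1 was at 3.76 TPM, and Mmp9, Mmp3 and Adamts4 were at 0.844, 0.647 and 0.281 TPM. Adamts4 was listed at 0 in 3 mice, each of them among the 4 libraries with few genes. The plot of TPM by mouse shows these levels and their change with time.

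**Figure D1:**
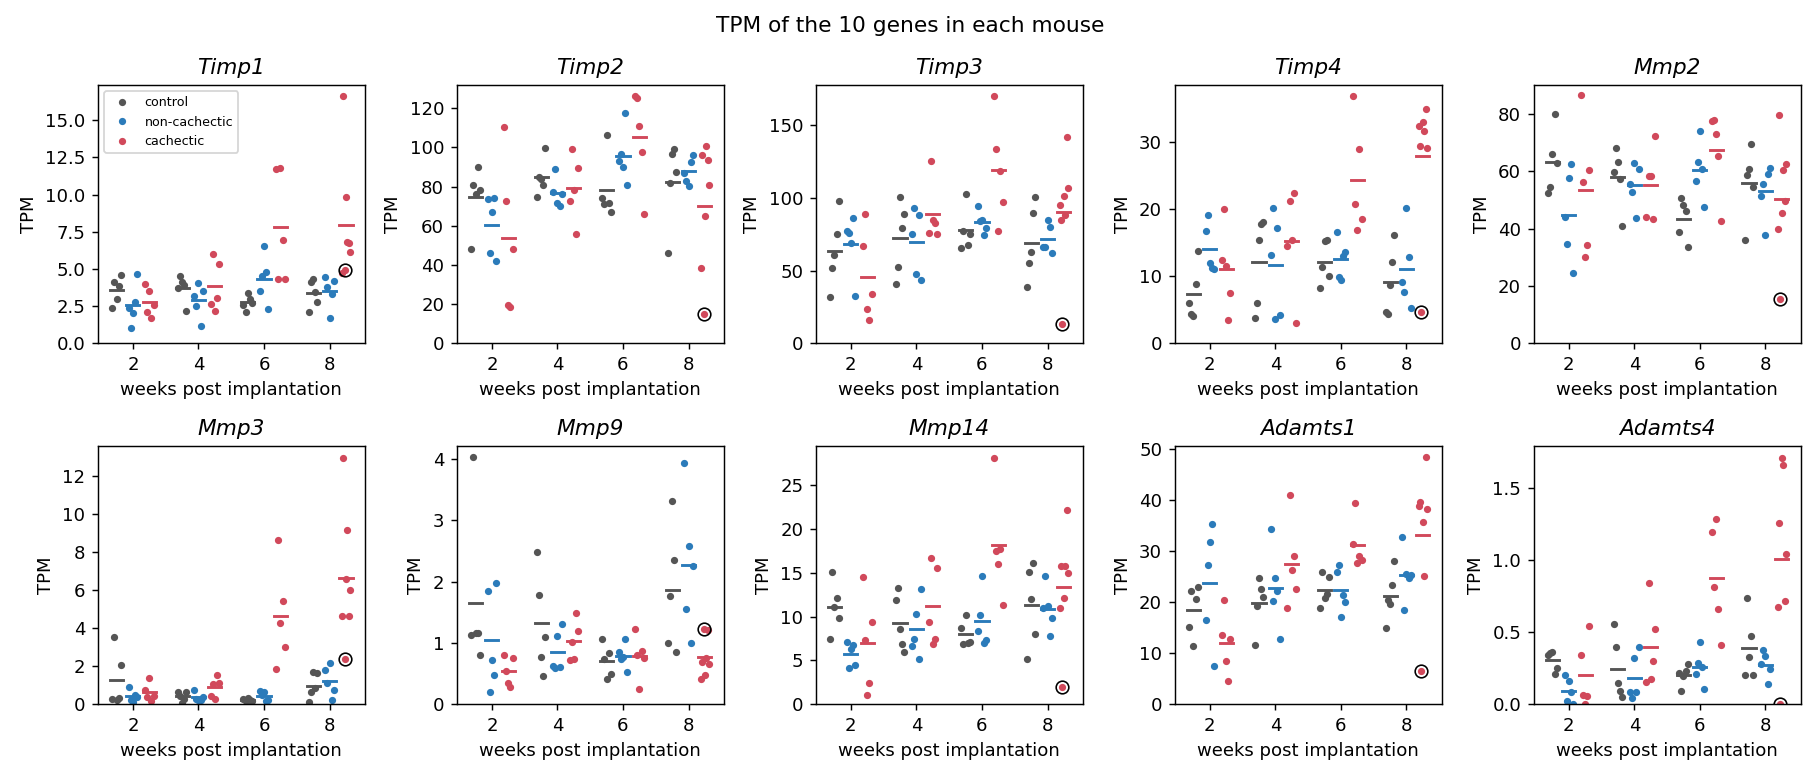
TPM (linear y axis, from 0) of each of the 10 genes in each of the 62 mice by weeks post implantation; points are mice, short lines are the means of each condition, gray marks control, blue non-cachectic and red cachectic mice, and the open circle marks cachectic replicate 3 at 8 weeks. Mmp3 and Adamts4 were low in most mice and had their highest condition means in cachectic mice at 8 weeks (6.61 and 1.01 TPM), and in the circled mouse Timp4 was at 4.68 TPM while the other 6 cachectic mice were at 29.2 to 34.9 TPM.

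At 6 and 8 weeks, cachectic mice had more Timp1 and Mmp3 RNA than control mice, and at 8 weeks also more Timp4 and less Mmp9. Adamts4 was called higher at both time points too, but it was kept for testing only through late cachectic mice. At 6 weeks, 3 of the 10 genes were called higher and 0 lower, beside 6.79% of all genes tested (5.62% higher). At 8 weeks, 4 were called higher and 1 lower, beside 14.8% of all genes (6.65% higher and 8.12% lower). Without Adamts4, 2 of the other 9 genes were called higher at 6 weeks, and 3 higher and 1 lower at 8 weeks. The median log2 fold change of the 10 genes was 0.61 at 6 weeks, against 0.17 over all genes, and 0.34 at 8 weeks, against -0.09. Without Adamts4 these medians were 0.60 and 0.22. The plot of fold changes gives all 10 genes at each time point.

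**Figure D2:**
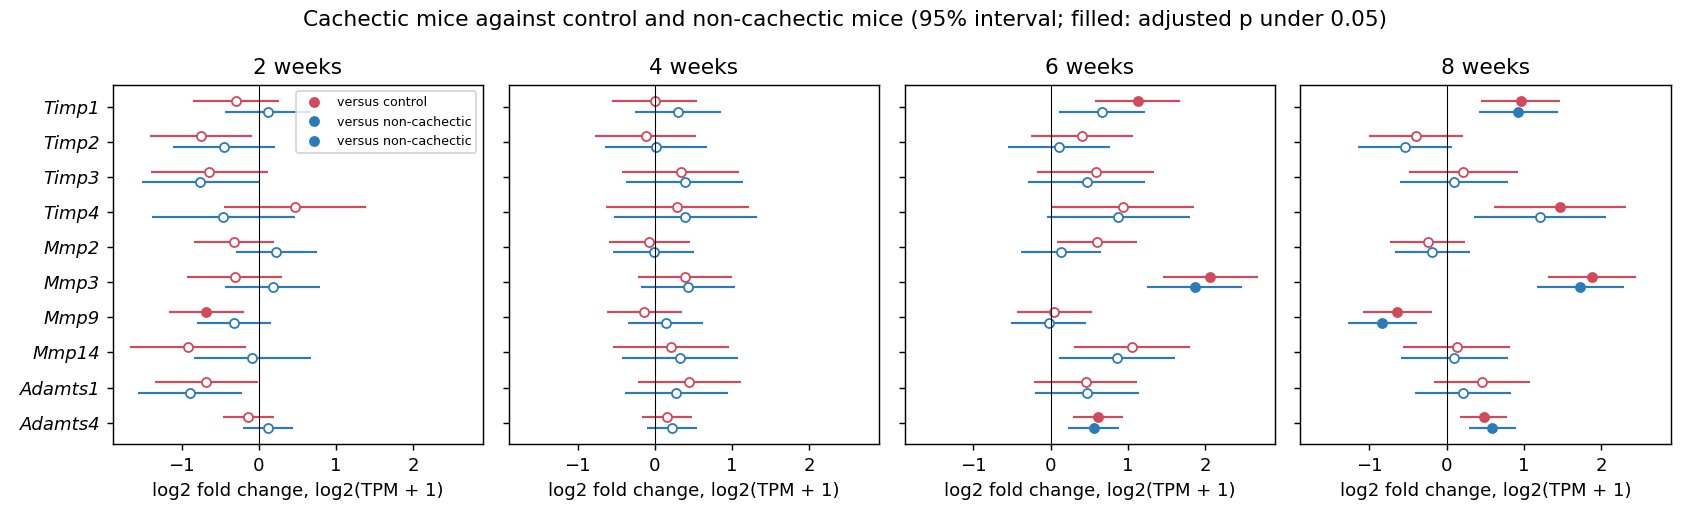
Log2 fold changes of the 10 genes on the log2(TPM + 1) scale (x axis) in cachectic mice against control mice (red) and against non-cachectic mice (blue) at 2, 4, 6 and 8 weeks; bars are 95% confidence intervals and filled points have an adjusted p under 0.05. Mmp3 stood farthest to the right at 6 and 8 weeks, at 2.07 and 1.89 against control mice, and no point was filled at 4 weeks.

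Among the inhibitors, Timp1, which is known to be induced by cytokines of the interleukin-6 family, was higher from 6 weeks on. At 6 weeks it was at 11.7, 4.33, 11.8, 6.93 and 4.31 TPM in the 5 cachectic mice and at 2.62, 2.14, 3.38, 3.00 and 2.73 TPM in the 5 control mice. Every cachectic mouse lay above every control mouse, and 2 of the 5 cachectic mice stood well above the other 3. The log2 fold change was 1.12 (SE 0.28, adjusted p = 0.00652), and the ratio of mean TPM was 2.82. At 8 weeks Timp1 ranged from 4.74 to 16.6 TPM in the 7 cachectic mice (median 6.73) and stood at 2.12, 4.15, 4.34, 3.44 and 2.81 TPM in control mice. The groups again did not overlap, with all 7 cachectic mice higher (log2 fold change 0.96, SE 0.25, adjusted p = 0.00585). Against non-cachectic mice, Timp1 was called at 8 weeks (0.93, SE 0.25, adjusted p = 0.00882, 7 of 7 mice above) and not at 6 weeks (0.66, SE 0.28, adjusted p = 0.160), when non-cachectic mice ranged from 2.28 to 6.58 TPM. The call at 8 weeks against non-cachectic mice was lost without non-cachectic replicate 3 (adjusted p = 0.0513).

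Timp4, the inhibitor known to be most restricted in its tissues and high in heart and muscle, was the TIMP with the largest difference at 8 weeks. Its TPM was 32.4, 29.4, 4.68, 33.0, 31.6, 34.9 and 29.2 in cachectic mice 1 to 7, and 4.66, 4.33, 8.70, 12.1 and 16.2 in control mice. Of the 7 cachectic mice, 6 lay within a narrow band far above all control mice, and replicate 3, one of the libraries with few genes, lay among the lowest control mice. The log2 fold change was 1.47 (SE 0.43, adjusted p = 0.0126) with replicate 3 and 1.83 (SE 0.40, adjusted p = 0.000521) without it. The call was lost without control replicate 1 (adjusted p = 0.0503) or 2 (adjusted p = 0.0584). Against non-cachectic mice (5.29 to 20.2 TPM) it missed the threshold with replicate 3 (1.21, SE 0.43, adjusted p = 0.0503) and passed it without (1.57, SE 0.40, adjusted p = 0.00309). At 6 weeks all 5 cachectic mice (16.9 to 36.8 TPM) lay above all 5 control mice (8.32 to 15.4 TPM), but the adjusted p was 0.244 (0.93, SE 0.46).

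Syn2, the gene that holds Timp4 on the other strand, moved with it. Syn2 was at 3.66 ± 1.12 TPM (SD, n = 5) in cachectic and 1.11 ± 0.22 TPM (n = 5) in control mice at 6 weeks, and at 4.71 ± 3.18 TPM (n = 7) and 0.842 ± 0.183 TPM (n = 5) at 8 weeks. The log2 fold changes of Syn2 were 1.11 (SE 0.26, adjusted p = 0.00430) and 1.40 (SE 0.24, adjusted p = 3.21e-05). Cachectic replicate 3 was at 0.298 TPM for Syn2 at 8 weeks, below every control mouse, and the other 6 cachectic mice were at 3.00 to 9.15 TPM. In each group the mean TPM of Timp4 was several times that of Syn2, and the part of either gene in the value of the other was not tested.

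Timp2 and Timp3, the inhibitors with the highest TPM, were not called at any time point. Timp2, which also takes part in the activation of Mmp2 by Mmp14, was at 69.9 ± 32.6 TPM in cachectic mice at 8 weeks and 82.3 ± 21.3 TPM in control mice (log2 fold change -0.40, 95% interval -1.01 to 0.21). Timp3 was at 90.0 ± 38.7 and 69.2 ± 25.3 TPM (0.22, -0.49 to 0.92). Cachectic replicate 3 held the lowest value of both genes at 8 weeks, 14.9 and 13.4 TPM, and without it the log2 fold change of Timp3 was 0.62 (SE 0.29, adjusted p = 0.137). At 6 weeks Timp2 was at 105 ± 24.9 TPM in cachectic and 78.1 ± 16.1 TPM in control mice, and Timp3 at 119 ± 35.3 and 77.6 ± 14.8 TPM, with adjusted p of 0.525 and 0.409. The intervals at 8 weeks leave room for changes of both genes in either direction.

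Mmp3 (stromelysin-1), which cuts proteoglycans, laminin and fibronectin and activates other metalloproteases, showed the largest difference of the 10 genes. At 6 weeks it was at 1.84, 8.63, 4.25, 5.40 and 3.02 TPM in cachectic mice, at 0.264, 0.195, 0.322, 0.223 and 0.162 TPM in control mice and at 0.670, 0.483, 0.639, 0.164 and 0.226 TPM in non-cachectic mice. The lowest cachectic mouse was above every mouse of the other two groups. The ratio of mean TPM was 19.8 against control mice (log2 fold change 2.07, SE 0.31, adjusted p = 5.33e-06) and 10.6 against non-cachectic mice (1.86, SE 0.31, adjusted p = 4.36e-05). At 8 weeks the 7 cachectic mice were at 2.36 to 12.9 TPM (median 5.98), control mice at 0.108, 0.655, 1.68, 0.849 and 1.62 TPM, and non-cachectic mice at 1.80, 1.09, 2.18, 0.231 and 0.767 TPM. Again all cachectic mice were higher, with replicate 3 the lowest of them, and control mice varied more than at 6 weeks. The log2 fold change was 1.89 (SE 0.28, adjusted p = 3.00e-06) against control and 1.73 (SE 0.28, adjusted p = 1.45e-05) against non-cachectic mice. Not overlapping with control mice and higher were 2.52% of all genes at 8 weeks, and 2 of the 10 genes here, Timp1 and Mmp3.

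Mmp9 (gelatinase B), known as a product of neutrophils and macrophages, went the other way at 8 weeks. It was at 0.406, 0.681, 1.22, 0.476, 0.751, 1.21 and 0.660 TPM in the 7 cachectic mice, at 0.998, 1.77, 3.31, 2.36 and 0.850 TPM in control mice, and at 3.93, 1.55, 2.58, 0.996 and 2.25 TPM in non-cachectic mice. In 5 of the 7 cachectic mice the value was below all control mice, and cachectic replicates 3 and 6 overlapped them. The log2 fold change was -0.64 (SE 0.22, adjusted p = 0.0447) against control and -0.83 (SE 0.22, adjusted p = 0.00731) against non-cachectic mice. The first of these calls was lost when any of 7 mice was left out: cachectic replicates 1, 2, 4 or 7, or control replicates 2, 3 or 4, with adjusted p of 0.0581 to 0.210. The second was lost without non-cachectic replicate 1 (adjusted p = 0.0554). Neutrophil markers ran in the opposite direction to Mmp9: the 8 markers summed to 8.97 to 74.7 TPM in cachectic mice at 8 weeks (median 27.9) and 4.33 to 15.3 TPM in control mice (median 10.9). Of the 4 neutrophil markers tested, S100a8 (1.33, adjusted p = 0.0315) and Retnlg (1.16, adjusted p = 0.0110) were called higher and 0 lower. Their part in the Mmp9 values was not tested.

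Mmp2 and Mmp14 were not called. Mmp14 was at 28.2, 17.5, 16.1, 17.8 and 11.3 TPM in cachectic mice at 6 weeks and at 8.73, 6.90, 10.2, 7.05 and 7.14 TPM in control mice. All 5 cachectic mice lay above all control mice, but the adjusted p was 0.0791 (log2 fold change 1.05, SE 0.38). At 8 weeks Mmp14 was at 13.4 ± 6.17 and 11.3 ± 4.66 TPM (0.13, 95% interval -0.56 to 0.83). Mmp2 was at 67.2 ± 14.7 TPM in cachectic and 43.4 ± 7.08 TPM in control mice at 6 weeks (0.60, SE 0.26, adjusted p = 0.165), and at 50.4 ± 20.2 and 55.9 ± 12.4 TPM at 8 weeks (-0.25, SE 0.24, adjusted p = 0.556). Without cachectic replicate 3 the latter difference was 0.00 on the log2 scale (SE 0.21).

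Adamts4 and Adamts1 are secreted proteases that cut proteoglycans such as aggrecan and versican, and both are known as targets of inflammatory signals. Adamts4 was at 1.19, 0.812, 1.29, 0.657 and 0.409 TPM in cachectic mice at 6 weeks and at 0.220, 0.0936, 0.197, 0.230 and 0.282 TPM in control mice, so the groups did not overlap (log2 fold change 0.61, SE 0.16, adjusted p = 0.0125, ratio of mean TPM 4.26). At 8 weeks it was at 0.675, 1.25, 0, 1.71, 1.66, 0.712 and 1.04 TPM in cachectic and 0.201, 0.735, 0.329, 0.476 and 0.201 TPM in control mice. Of the 7 cachectic mice, 4 were above all control mice, and replicate 3 was listed at 0. The log2 fold change was 0.48 (SE 0.15, adjusted p = 0.0231) with replicate 3 and 0.64 (SE 0.13, adjusted p = 0.000312) without it. The call at 6 weeks was lost without cachectic replicate 1 (adjusted p = 0.0658), and that at 8 weeks without any of cachectic replicates 2, 4 or 5 or control replicates 1, 3 or 5 (adjusted p of 0.0527 to 0.0729). Against non-cachectic mice Adamts4 was called at 6 weeks (0.56, SE 0.16, adjusted p = 0.0290) and 8 weeks (0.59, SE 0.15, adjusted p = 0.00469). The former was lost without any of cachectic replicates 1 or 3 or non-cachectic replicates 1, 2, 4 or 5 (adjusted p up to 0.124).

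Adamts1 was at 31.3, 39.4, 27.6, 29.0 and 28.1 TPM in cachectic and 18.8, 25.9, 20.8, 21.6 and 25.0 TPM in control mice at 6 weeks. These values did not overlap, but the difference was small on the log2 scale and was not called (0.45, SE 0.33, adjusted p = 0.481). At 8 weeks it was at 38.7, 39.5, 6.43, 35.6, 25.1, 48.4 and 38.2 TPM in cachectic and 14.9, 20.4, 19.6, 23.3 and 28.0 TPM in control mice. Of the 7 cachectic mice, 5 were above every control mouse and replicate 3 was below all of them. The log2 fold change was 0.46 (SE 0.31, adjusted p = 0.360) with replicate 3 and 0.80 (SE 0.26, adjusted p = 0.0254) without it. At 6 weeks, 6 of the 10 genes (Timp1, Timp4, Mmp3, Mmp14, Adamts1 and Adamts4) were higher in every cachectic mouse than in any control mouse, beside 15.9% of all genes. Without Adamts4 this count was 5 of 9. Complete separation of 5 against 5 mice fixes the exact two-sided permutation p at 0.00794, the smallest possible. That p therefore restates the separation of these 6 genes and adds no support.

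Cachectic replicate 3 at 8 weeks held the lowest cachectic value at that time point in 8 of the 10 genes, all but Timp1 and Mmp9. Without it, 5 of the 10 genes were called higher (Adamts1 was added) and 1 lower against control mice, beside 18.7% of all genes (12.6% higher and 6.13% lower), and the median of the 10 genes was 0.63 against 0.06 over all genes. Adamts4, kept for testing only through late cachectic mice, is part of this count and this median. Against non-cachectic mice, 2 genes were called at 6 weeks (Mmp3 and Adamts4, beside 5.85% of all genes, 4.28% higher) and 4 at 8 weeks (Timp1, Mmp3 and Adamts4 higher and Mmp9 lower, beside 12.9% of all genes, 6.75% higher and 6.19% lower). Without Adamts4, 1 of the other 9 genes was called higher at 6 weeks, and 2 higher and 1 lower at 8 weeks. When replicate 3 was left out, Timp4 was added at 8 weeks, beside 17.8% of all genes. All cachectic mice lay above all non-cachectic mice for Timp4, Mmp3 and Adamts1 at 6 weeks (3 of the 10 genes, beside 13.6% of all genes) and for Timp1 and Mmp3 at 8 weeks (2 of the 10, beside 2.45%). The comparisons with control and with non-cachectic mice share the cachectic mice.

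The make-up of the TIMP and MMP transcripts can be read within each library, where the scaling of the library has no part. Timp4 made up 12.4% to 19.0% of the summed TPM of the 4 TIMP genes in the 7 cachectic mice at 8 weeks (14.3% ± 2.40), 2.97% to 7.81% in the 5 control mice (5.37% ± 1.75) and 3.16% to 10.8% in the 5 non-cachectic mice (6.21% ± 2.89). Mmp3 made up 5.94% to 11.9% of the summed TPM of the 4 MMP genes in cachectic mice (9.31% ± 2.23), 0.254% to 2.49% in control mice (1.34% ± 0.94) and 0.338% to 4.05% in non-cachectic mice (1.92% ± 1.46). Neither share overlapped between cachectic and other mice at 8 weeks. Cachectic replicate 3, low in TPM for most of these genes, had the lowest Timp4 share of the cachectic mice, at 12.4% (12.6% to 19.0% in the other 6). Its Mmp3 share of 11.2% lay among those of the other 6 (5.94% to 11.9%). At 6 weeks the Mmp3 share was 1.70% to 8.23% in cachectic and 0.334% to 0.545% in control mice, while the Timp4 share overlapped, at 7.32% to 11.5% and 5.52% to 9.75%. High Timp4 shares were also seen early: at 2 weeks cachectic replicate 3 was at 19.98%, the highest of the 62 mice, non-cachectic replicate 2 at 13.4% and non-cachectic replicate 5 at 12.2%, the first and the last of these being libraries with few genes. At 4 weeks cachectic replicate 4, not a library with few genes, was at 13.7%. The part of low gene number in the Timp4 share of cachectic replicate 3 at 8 weeks was not tested. The ratio of summed TIMP to summed MMP TPM was 2.71 ± 0.63 in cachectic, 2.63 ± 0.52 in non-cachectic and 2.36 ± 0.48 in control mice at 8 weeks, with overlapping values. These shares were chosen with the values known and are given as a description, with no test.

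**Figure D3:**
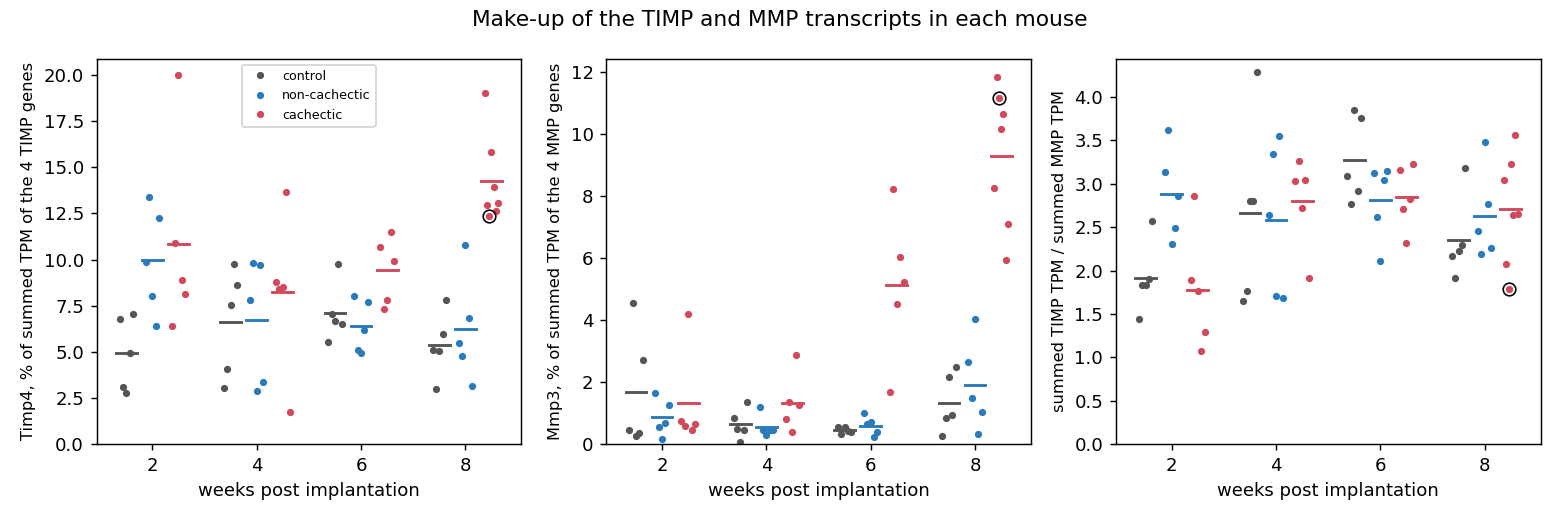
Share of Timp4 in the summed TPM of the 4 TIMP genes (left, %), share of Mmp3 in the summed TPM of the 4 MMP genes (middle, %) and ratio of the 2 sums (right) in each mouse by weeks post implantation; points are mice, lines are means of each condition, gray marks control, blue non-cachectic and red cachectic mice, and the open circle marks cachectic replicate 3 at 8 weeks. At 8 weeks all 7 cachectic mice, the circled one included, lay above the other 8-week mice in both shares, while the ratio overlapped between the groups.

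At 4 weeks none of the 10 genes was called by limma against control mice, beside 0.0221% of all genes, or against non-cachectic mice, beside 0.0295%. At an unadjusted p under 0.05 the count was 0 of the 10 in each comparison. Shares of all genes are given for calls only, not for unadjusted counts. Mmp3 was at 0.887 ± 0.529 TPM in cachectic and 0.410 ± 0.251 TPM in control mice at that time. At 2 weeks Mmp9 was called lower against control mice (-0.68, SE 0.24, adjusted p = 0.0331), beside 29.3% of all genes (27.8% lower), and 4 of the 10 genes (Mmp9, Mmp14, Timp2 and Adamts1) had an unadjusted p under 0.05, all lower. The 27.8% of all genes called lower also pass that unadjusted threshold, so the share of all genes lower there is at least as large. For Mmp9, control replicate 2, one of the libraries high in liver genes, was at 4.02 TPM while the other 4 control mice were at 0.809 to 1.17 TPM. The Mmp9 call was lost without that mouse (-0.43, adjusted p = 0.146), and without cachectic replicate 3 (adjusted p = 0.144) or 4 (adjusted p = 0.128), both libraries with few genes. Against non-cachectic mice at 2 weeks 0 of the 10 genes were called, beside 0% of all genes. At an unadjusted p under 0.05 there was 1 of the 10.

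The change of the difference with time was tested directly. The difference between cachectic and control mice grew from 4 to 6 weeks by 1.68 (SE 0.43) on the log2 scale for Mmp3 and by 1.13 (SE 0.39) for Timp1, with adjusted p of 0.413 and 1.00, and from 4 to 8 weeks by 1.49 (SE 0.42, adjusted p = 0.241) and 0.96 (SE 0.37, adjusted p = 0.528). None of the 10 genes passed limma's adjusted threshold in these contrasts, where 0% of all genes did, and 2 had an unadjusted p under 0.05 in each of them. From 6 to 8 weeks Mmp2 and Mmp9 had the smallest unadjusted p, with changes of -0.85 (SE 0.35) and -0.68 (SE 0.33) and an adjusted p of 0.623 each. Control mice at 8 and 4 weeks differed in 0 of the 10 genes by limma, beside 0% of all genes, and 0 of the 10 had an unadjusted p under 0.05.

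The non-cachectic xenograft was accompanied by no call. Non-cachectic and control mice differed in 0 of the 10 genes by limma at 2, 4, 6 and 8 weeks, beside 4.43%, 0%, 0% and 0% of all genes called. At an unadjusted p under 0.05 there were 3 of the 10 genes at 2 weeks and 0 later. At 8 weeks the log2 fold changes of the 10 genes in non-cachectic against control mice lay between -0.11 and 0.26, and Mmp3 was at 1.21 ± 0.785 against 0.981 ± 0.666 TPM. In the order of the 12 condition means, cachectic mice at 8 weeks were highest for Timp1, Timp4, Mmp3, Adamts1 and Adamts4, with cachectic mice at 6 weeks next in all 5, while for Timp2, Timp3, Mmp2 and Mmp14 cachectic mice at 6 weeks were highest. Neighbors in these orders mostly lay within the larger of their SDs: 1 of 11 neighboring pairs was farther apart for each of Timp4, Mmp3, Adamts1 and Adamts4, and 0 of 11 for the other 6 genes.

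Other proteases of the same families were also compared with control mice. Of all genes, 6.79% were called at 6 weeks (5.62% higher) and 14.8% at 8 weeks (6.65% higher and 8.12% lower). Of 19 other MMP genes 5 were tested, and Mmp15, a membrane-bound MMP, fell at 8 weeks (4.14 ± 2.81 against 12.3 ± 2.31 TPM, log2 fold change -1.57, SE 0.33, adjusted p = 0.000492), with all 7 cachectic mice below all control mice. Of 9 other ADAMTS genes tested, Adamts15 rose at 6 weeks (1.41, SE 0.25, adjusted p = 0.000108) and 8 weeks (1.13, SE 0.23, adjusted p = 0.000301), at 5.13 ± 3.31 against 1.11 ± 0.102 TPM and 5.34 ± 2.39 against 1.70 ± 0.582 TPM, and Adamts12 was called lower at 8 weeks (-0.42, adjusted p = 0.0272) but not without cachectic replicate 3, when 0 of the 9 were called lower. Adamts15, which cuts versican, was the only gene of these protease lists called higher at both time points. Of 7 ADAM genes, Adam17, the sheddase that releases tumor necrosis factor, and Adam19 were called lower at 8 weeks (-0.78 and -0.80, adjusted p = 0.000204 and 0.00394), and of 6 ADAMTS-like genes 0 were called by limma. Of the 2 tolloid-type proteases tested, Tll1 was called higher at 6 weeks (0.58, adjusted p = 0.0275).

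Genes that activate or restrain the proteases were also compared with control mice. Of all genes, 6.79% were called at 6 weeks, and 6.65% higher and 8.12% lower at 8 weeks. Of 11 genes of activation, 0 were called at 6 weeks and 3 lower at 8 weeks: Pcsk6, a proprotein convertase, and the plasminogen activators Plat and Plau (-1.17, -0.60 and -0.57, adjusted p = 0.00417, 0.0480 and 0.00279). Of 4 other inhibitor and clearance genes tested, Reck, a membrane-anchored MMP inhibitor, was called lower at 8 weeks (-0.70, SE 0.24, adjusted p = 0.0395). The medians of the 2 lists at 8 weeks were -0.13 and -0.29, against -0.09 over all genes. Without cachectic replicate 3, 2 activation genes and 0 of the other inhibitor and clearance genes were called lower, beside 6.13% of all genes.

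Among the matrix substrates, collagen chains were lower at 8 weeks. Of 21 substrate genes tested at 8 weeks, 11 were called lower and 1 higher, with a median log2 fold change of -0.94 against -0.09 over all genes. Col6a2, Col1a1 and Col6a3, chains of collagen VI and I, fell by 2.14, 2.12 and 1.93 on the log2 scale (SE 0.39, 0.46 and 0.33, adjusted p = 7.39e-05, 0.000672 and 2.52e-05). Col1a1, for example, was at 18.3 ± 13.8 TPM in cachectic and 64.0 ± 19.3 TPM in control mice, with 6 of 7 cachectic mice below all control mice. Dcn, the proteoglycan decorin, was the gene called higher, at 832 ± 268 against 587 ± 138 TPM (0.49, SE 0.16, adjusted p = 0.0317), and it was also higher at 6 weeks (0.71, SE 0.18, adjusted p = 0.00708). At 6 weeks 0 of the 21 were called lower, and against non-cachectic mice 4 were called lower at 6 weeks and 10 at 8 weeks. Without cachectic replicate 3, 10 of the 21 were called lower at 8 weeks (median -0.52).

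**Figure D4:**
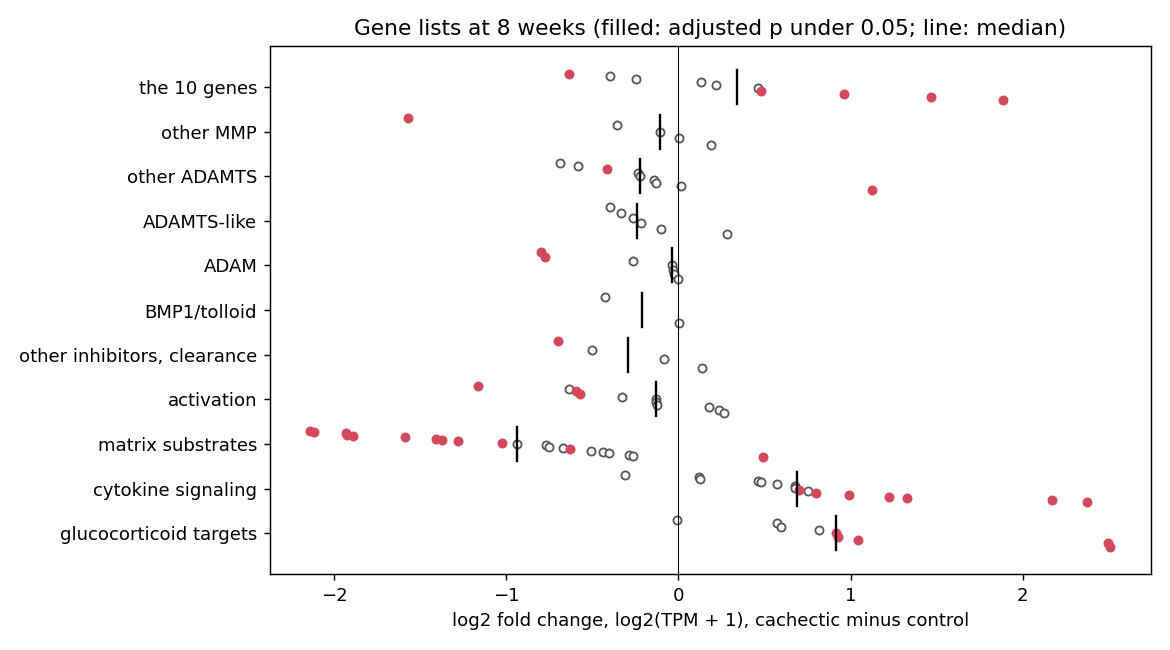
Log2 fold change on the log2(TPM + 1) scale in cachectic against control mice at 8 weeks (x axis) for each gene tested in each list (y axis); filled points have an adjusted p under 0.05 and black lines are list medians. The matrix substrates had a median of -0.94 and the cytokine signaling genes one of 0.69, and the 10 genes lay from -0.64 to 1.89.

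Some genes of signals that are known to act on these proteases were called higher at the same time points. Of 16 genes of cytokine signaling, 9 were called higher at 6 weeks and 7 at 8 weeks, and 0 lower. Socs3, the feedback inhibitor of interleukin-6 type receptors, had a log2 fold change of 2.85 at 6 weeks (41.8 ± 17.1 against 4.66 ± 1.16 TPM, adjusted p = 1.06e-06) and 2.17 at 8 weeks (adjusted p = 1.03e-05). Osmr, the receptor of oncostatin M, rose by 1.75 and 1.33 (adjusted p = 6.61e-06 and 6.68e-05). Junb, a subunit of AP-1, rose by 1.84 at 6 weeks (adjusted p = 0.000935), and Cebpd, a C/EBP factor, by 2.37 at 8 weeks (adjusted p = 0.000104). Of 9 glucocorticoid targets, 1 was called higher at 6 weeks and 5 at 8 weeks, with Fkbp5 at 2.50 and 2.51 (adjusted p = 0.0209 and 0.00502) and Ddit4 and Sgk1 at 2.50 and 1.04 at 8 weeks (adjusted p = 0.00102 and 0.0119). Without cachectic replicate 3, 13 of the 16 and 7 of the 9 were called higher at 8 weeks. Others were not called, such as Fos (-0.31), Jun (0.12), Il6st (0.13) and Klf9 (-0.01) at 8 weeks. These 4 were chosen after their values were seen. The lists were chosen with earlier results known, so their counts are a description.

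Markers of cell types that make these proteases were set beside the results. Of 8 macrophage markers, Mrc1, C1qb and Fcgr1 were called higher at 6 weeks (1.23, 0.98 and 0.66, adjusted p = 8.75e-05, 0.0319 and 0.0269), and these and C1qa (0.93, adjusted p = 0.0141) at 8 weeks. The others were not called at 6 weeks, with log2 fold changes of -0.32 for Lyz2, -0.04 for Adgre1, 0.21 for Cd68, 0.59 for Csf1r and 0.90 for C1qa. The 8 macrophage markers summed to 316 to 674 TPM in cachectic mice at 6 weeks (median 463) and 303 to 816 TPM in control mice (median 412). At 8 weeks they summed to 266 to 1160 TPM in cachectic mice (median 749) and 282 to 581 TPM in control mice (median 390). The neutrophil markers summed to 16.6 to 31.3 TPM in cachectic mice at 6 weeks and 4.02 to 13.3 TPM in control mice, without overlap, and 0 of the 4 tested were called by limma. Of 7 markers of fibro-adipogenic cells, the connective tissue cells of muscle, 0 were called at 6 weeks and Lum was called lower at 8 weeks (-0.89, adjusted p = 0.0258). Those markers summed to 170 to 555 TPM in cachectic and 287 to 530 TPM in control mice at 8 weeks. Of 8 endothelial markers Kdr was called lower at 8 weeks (-0.98, adjusted p = 0.00403, 7 of 7 mice below), of 7 mural cell markers Cspg4 (-0.74, adjusted p = 0.0168) and of 5 mast cell markers Kit (-0.58, adjusted p = 0.0161), with 0 of each list called higher. Without cachectic replicate 3, 0 of the mural cell markers were called, and 1 endothelial and 2 mast cell markers were called lower. The sums at 8 weeks were 71.2 to 296 TPM (median 256) in cachectic and 237 to 303 TPM (median 264) in control mice for the endothelial markers. For the mural cell markers they were 202 to 758 TPM (median 345) and 344 to 586 TPM (median 401). Of 6 adipocyte markers Fabp4 was called higher (0.69, adjusted p = 0.0436), and 0 of the 6 without cachectic replicate 3. The adipocyte sum was 882 to 4290 TPM in cachectic mice (median 1533) and 650 to 1380 TPM in control mice (median 794). Of 6 mesothelial markers 0 were called by limma. The part of these cells in the levels of the 10 genes was not tested.

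The genes most like each member over the 12 condition means of log2(TPM + 1) were listed by Pearson's r, as a description, since the means share libraries with few genes and the same late cachectic mice. For Mmp3 they were Vimp, Fcgr1 and Tbcb (r = 0.967 or more), for Adamts4 Litaf, Vimp and Slc52a3 (0.976 or more), and for Timp1 they included Sdcbp and Fxyd5 (0.964 or more). For Timp4 they were Pop4, Fam107a and Gm11730, for Timp2 Glis2, Adgrd1 and Ubxn7, and for Timp3 Lin52, Unc13b and Slf1. Mmp2 was most like Pcsk5, Scg5 and Fgf18, Mmp9 like S1pr3, Pla2g2d and Nkd1, Mmp14 like Copb2, Il17rc and Mtap, and Adamts1 like Gm28035, Stc1 and Klf6. Within the set, Mmp3 and Adamts4 (0.959), Timp1 and Adamts4 (0.955), Timp3 and Adamts1 (0.917) and Timp1 and Mmp3 (0.912) were the closest pairs, while Mmp9 had r between -0.49 and 0.37 with the other 9. Over the 9 conditions from 4 weeks on, the nearest gene was another one for all 10 members.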

How the data were processed

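Diaphragm RNA was sequenced by the authors, 1 library per mouse, and the reads were trimmed, aligned to GRCm38 (mm10) and quantified with CLC Genomics Workbench. TPM is the unit the authors deposited, so read depth is unknown and no count test was possible. The labels name a stranded library kit and the study's methods an unstranded one. Annotation release, counting by strand and handling of multi-mapping reads are not given in the sources used here. The fit kept genes that reached 1 TPM in 5 or more of 62 mice (13578 of 47643). log2(TPM + 1) was fitted in limma 3.58.1 (R 4.3.3) with 1 mean per condition and a trended prior, and p-values were Benjamini-Hochberg adjusted over all genes kept. Single genes also had exact two-sided permutation tests. Errors are SD over mice. Labels give 1 sample per mouse. Same-numbered mice had correlations of deviations of -0.633 to 0.387, so the numbers were not taken to pair mice. The members and the gene lists were chosen with earlier results of these data known. Named genes are the 10 members, list genes among the called with the largest changes, and Syn2, which overlaps a member and was tested after its values were seen. Some genes that the rule names are not reported here. Alternatives were another pseudocount, filter, scaling, weighting, test or set of mice.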

Additional observations from a re-analysis of the deposited data

Results flagged for a closer look

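In each of 120 groups of mice (10 genes in 12 conditions) the highest and lowest mouse were compared with the rest by Dixon's test at its 95% critical value. In 13 groups a mouse stood apart, where chance gives about 1 in 20, or 6. Of the 13, 5 were cachectic replicate 3 at 8 weeks, a library with few genes: Timp3 was at 13.4 TPM (84.4 to 141 in the other 6 mice), Timp4 at 4.68 TPM (29.2 to 34.9), Mmp2 at 15.5 TPM (39.9 to 79.7), Mmp14 at 2.01 TPM (11.01 to 22.2) and Adamts1 at 6.43 TPM (25.1 to 48.4). Non-cachectic replicate 5 at 2 weeks, another library with few genes, was at 32.3 TPM for Timp3 (68.6 to 86.3 in the other mice).

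Among control mice, Timp2 stood apart in replicate 1 at 2 weeks (48.3 TPM, the others 76.5 to 90.1), replicate 3 at 6 weeks (106 TPM, the others 66.8 to 74.2) and replicate 1 at 8 weeks (46.2 TPM, the others 82.0 to 99.0). Timp1 was at 2.17 TPM in control replicate 5 at 4 weeks (3.73 to 4.56 in the others), and Mmp9 at 4.02 TPM in control replicate 2 at 2 weeks (0.809 to 1.17 in the others). In cachectic mice at 4 weeks, Timp3 was at 125 TPM in replicate 2 (75.3 to 84.4 in the others) and Timp4 at 3.04 TPM in replicate 5 (14.5 to 22.3 in the others).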

How the results depend on the processing

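The 15 calls of single members kept their direction in all 363 alternatives, and 287 of these stayed past the threshold. Mmp3 lost its calls under Dunn's test, and at 8 weeks against non-cachectic mice also under the exact permutation test, with adjusted p up to 0.242. Mmp9 at 8 weeks against control mice was lost in 14 of 25 alternatives and Adamts4 in 10 of 25. Timp1 at 8 weeks against control mice was lost in 3 of 25 (adjusted p up to 0.0709).

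Numbers of the 10 genes called are given next, with the number of all genes called in the same fit in brackets, since both move together. The 10 include Adamts4, which was kept only through late cachectic mice. Against control mice at 2 weeks (1 called, 3973 of all genes), 2 were called with a pseudocount of 0.1 (4084) or TPM over nuclear genes (4205), and 0 with median-ratio scaling (2595), quantile normalization (2176), a liver gene covariate (1940), array weights (153), Dunn's test, the permutation test, only the groups compared, without the 4 libraries with few genes, or without the libraries high in liver genes, an alternative added after seeing the data (0 of all genes in each of these 5). At 6 weeks (3 called, 922), array weights gave 8 (6565), only the groups compared 8 (4030), the permutation test 6 (2564), leaving out the 4 libraries 5 (4233) and Dunn's test 0 (0). At 8 weeks (5 called, 2005), the pseudocount of 0.1 gave 3 (1863), and Dunn's test (1121), the permutation test (353) and only the groups compared (552) gave 1 each. Against non-cachectic mice at 6 weeks (2 called, 794), the pseudocount (672), quantile normalization (1255) and nuclear TPM (903) gave 1, array weights 4 (5519), only the groups compared 5 (3302) and Dunn's test 0 (0). At 8 weeks (4 called, 1757), Dunn's test (607) and the permutation test (0) gave 0 and only the groups compared 1 (364). Array weights, whose estimation stopped before converging, gave 2 (1767) for non-cachectic against control mice at 2 weeks, and 6 (2195) and 4 (1055) for the change of the difference from 4 to 6 and from 4 to 8 weeks (0 called), where leaving out the 4 libraries gave 1 (187) at 8 weeks. The cause was not tested.

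Leaving out 1 mouse at a time gave 0 to 5 calls against control mice at 2 weeks (21 to 7936 of all genes), 0 at 4 weeks (0 to 16), 2 to 3 at 6 weeks (413 to 1040) and 3 to 6 at 8 weeks (1543 to 2541). At 2 weeks 3 were called without cachectic replicate 1 (7936) or control replicate 1 (5410), 5 without cachectic replicate 2 (7741), 2 without cachectic replicate 5 (6246), and 0 without cachectic replicates 3 or 4 or control replicate 2. At 8 weeks 3 were called without cachectic replicates 2 or 4 or control replicates 1, 2 or 3. At 6 weeks Adamts4 was lost without cachectic replicate 1 (adjusted p = 0.0658). Against non-cachectic mice the ranges were 0 to 1 at 2 weeks (0 to 827, 1 call without non-cachectic replicate 5), 0 at 4 weeks (2 to 7), 1 to 2 at 6 weeks (346 to 850) and 3 to 5 at 8 weeks (1214 to 2421). At 6 weeks 1 was called without cachectic replicates 1 or 3 or non-cachectic replicates 1, 2, 4 or 5. The change of the difference gave 0 to 1 from 4 to 8 weeks (1 without cachectic replicate 3 at 8 weeks) and 0 in the other 2 contrasts, and non-cachectic against control mice and control mice over time gave 0. With the replicate number as a block, 1, 0, 3 and 5 genes were called against control mice at 2, 4, 6 and 8 weeks and 0, 0, 2 and 4 against non-cachectic mice, as without the block. TPM carry no read depth, so the counting error of low genes such as Adamts4 is unknown.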
